A study of Mus musculus with 6 samples.

Results

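The potassium channel gene family comprised every gene whose symbol began with Kcn, followed by one or more small letters and a number, in the read counts of 6 libraries of amygdala neurons. This rule took 97 of the 35976 genes counted, and 66 of them had enough reads to be tested. The rule itself uses symbols and no measured value. All mice were male C57BL/6J animals whose amygdala had received an adeno-associated virus with Cas9 under the astrocyte promoter GfaABC1D, and this virus was left to express for more than 2 weeks. In the control group (sgRosa, 3 libraries) the guide was directed at the Rosa26 locus, and in the other group (sgEgfr, 3 libraries) at Egfr, the gene of the epidermal growth factor receptor. Both groups were then restrained in a tube for 7 days, fear was conditioned on 1 day and extinguished over 3 days, so that stress was shared by the groups and was not compared here. The comparison addressed which transcripts of the neuron fraction differed when Egfr was targeted in astrocytes. Cas9 was thus meant for astrocytes whereas neurons were sequenced, the neurons came from papain-digested tissue through a magnetic isolation kit, and the labels do not say whether each library came from a separate mouse. The p-values therefore measure only the spread between these libraries, which may be technical.

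Potassium channels let potassium leave the cell and so set the resting potential of neurons, the shape of the action potential and the interval before the next one. Voltage-gated alpha subunits (Kcna, Kcnb, Kcnc, Kcnd, Kcnh and Kcnq) form the pore and open on depolarisation, while Kcnab, Kcnip and Kcne genes encode accessory subunits that change their gating or placement. Calcium- and sodium-activated channels (Kcnma, Kcnn, Kcnt), inward rectifiers (Kcnj) and tandem-pore leak channels (Kcnk) complete the family, and several inward rectifiers and leak channels are known from glia, vessels or the choroid plexus rather than from neurons.

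The total count per library ranged from 2348897 to 10152812, and members of the family took between 0.119% and 0.316% of it. Egfr had 1, 26 and 23 reads in sgRosa and 6, 18 and 6 in sgEgfr (log2 fold change -0.64, SE 1.01, edgeR adjusted p = 0.917), which is too few reads to check the labels. The neuron label was checked against marker genes. The summed level of 12 pan-neuronal markers lay between 1587 and 4656 CPM (read counts scaled to an equal library total), whereas that of 10 oligodendrocyte markers lay between 22648 and 72656 CPM, so the libraries held much RNA of other cells. Libraries sgRosa 3 and sgEgfr 1 stood apart by RNA of the choroid plexus: Ttr, the transthyretin gene that marks this tissue, was at 3052 and 1852 CPM there and between 0 and 28.1 CPM in the other libraries. Library sgRosa 1 had 29.8% of its reads on mitochondrial genes, against 10.3% to 15.7% in the others.

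The promoters of 4 members are shown because their values below contrast. Kcnd2, known from neurons, and Kcnk13, known from microglia, leaned in opposite directions between the groups. The microglial markers leaned upward between the groups, opposite to Kcnk13, but within sgEgfr both had the same order, as given below. Kcnj13 and Kcne2 are channel genes of the choroid plexus that were high together in the same libraries. Each window runs from 250 bases before to 50 bases after the RefSeq start (GRCm38.p6), 5′ to 3′ on the gene's strand, and capitals mark CpG dinucleotides. The windows are chr6:21215096-21215395 (plus strand) for Kcnd2, chr12:99964249-99964548 (plus) for Kcnk13, chr1:87394680-87394979 (minus) for Kcnj13 and chr16:92292139-92292438 (plus) for Kcne2, for which the first of its RefSeq starts was taken.
Kcnd2: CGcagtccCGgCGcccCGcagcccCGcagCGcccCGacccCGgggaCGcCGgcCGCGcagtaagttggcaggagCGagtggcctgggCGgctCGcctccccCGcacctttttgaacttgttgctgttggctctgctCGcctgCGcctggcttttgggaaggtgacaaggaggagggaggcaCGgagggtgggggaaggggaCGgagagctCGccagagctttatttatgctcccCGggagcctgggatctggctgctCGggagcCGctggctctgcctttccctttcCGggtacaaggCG
Kcnk13: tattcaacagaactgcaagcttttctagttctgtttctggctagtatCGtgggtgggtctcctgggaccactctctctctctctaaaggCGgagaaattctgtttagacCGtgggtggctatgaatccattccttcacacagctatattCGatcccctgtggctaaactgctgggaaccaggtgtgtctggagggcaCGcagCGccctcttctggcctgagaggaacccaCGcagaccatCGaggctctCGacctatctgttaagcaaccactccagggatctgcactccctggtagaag
Kcnj13: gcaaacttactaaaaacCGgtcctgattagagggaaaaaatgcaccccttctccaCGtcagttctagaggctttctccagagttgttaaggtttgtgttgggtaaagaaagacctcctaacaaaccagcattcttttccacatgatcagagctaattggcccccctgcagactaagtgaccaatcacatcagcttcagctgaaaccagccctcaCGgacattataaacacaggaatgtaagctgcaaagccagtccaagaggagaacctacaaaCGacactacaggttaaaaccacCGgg
Kcne2: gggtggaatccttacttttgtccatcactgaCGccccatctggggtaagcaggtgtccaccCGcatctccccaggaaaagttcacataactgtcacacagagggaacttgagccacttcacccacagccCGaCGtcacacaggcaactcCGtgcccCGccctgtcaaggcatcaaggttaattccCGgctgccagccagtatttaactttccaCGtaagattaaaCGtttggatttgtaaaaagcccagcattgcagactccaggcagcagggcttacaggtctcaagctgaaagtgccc

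The Kcnd2 window held 26 CpG dinucleotides, and those of Kcnk13, Kcnj13 and Kcne2 held 9, 5 and 9. RefSeq gave 96 such windows for 71 of the 97 members, and their median was 9 CpG dinucleotides and 58.2% G or C, beside 7 and 52.7% over all 32851 windows of the genome. The letters TATAAA were found on either strand in 5.21% of the members' windows and in 13.6% of all windows. In the Kcnj13 window they began 29 bases before the start. The letters GGGCGG, on either strand, were found in 47.9% of the members' windows and in 35.7% of all, and the windows of Kcnd2 and Kcne2 each held 1 match. Such matches describe letters only.

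No member of the family passed the test for a difference between sgEgfr and sgRosa. In edgeR's quasi-likelihood fit, with p-values adjusted by Benjamini-Hochberg over 13159 genes and a threshold of 0.05, 0 of 66 tested members were called, as were 0% of all genes tested. Adjusted p-values of the members ran from 0.781 to 0.996. DESeq2 called 0 members and 33 genes (0.251% of the 13159). It gave no adjusted p for 31 of the 66 members and 5114 of the genes, which therefore could not be called. Limma-voom with quality weights called 0 members, and its smallest adjusted p over all genes was 0.250, so it called no gene at all. At an unadjusted p under 0.05 edgeR counted 0 members, while 6.16% of all genes (3.23% in the higher direction) were under it; DESeq2 counted 1 member, beside 5.98% of all genes, and limma-voom 12 of 66 members, beside 15% of all genes. The smallest unadjusted p of a member by edgeR was 0.0582, for Kcnq3.

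Fold changes of the members leaned upward in sgEgfr without separating the groups. Of the 66 tested members 47 had a log2 fold change above 0 (71.2%), beside 46.3% of all genes, and the family's median was 0.24 against -0.04. In 45 members the log2 fold change lay between -0.5 and 0.5, and its standard error had a median of 0.51. In no member were all 3 sgEgfr libraries above all 3 sgRosa libraries, or all below, beside 5.8% and 7.6% of all genes. The 24 tested voltage-gated alpha subunits included 19 with a positive log2 fold change. As these are bulk libraries, fewer cells of a type and less RNA per cell cannot be told apart.

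**Figure D1:**
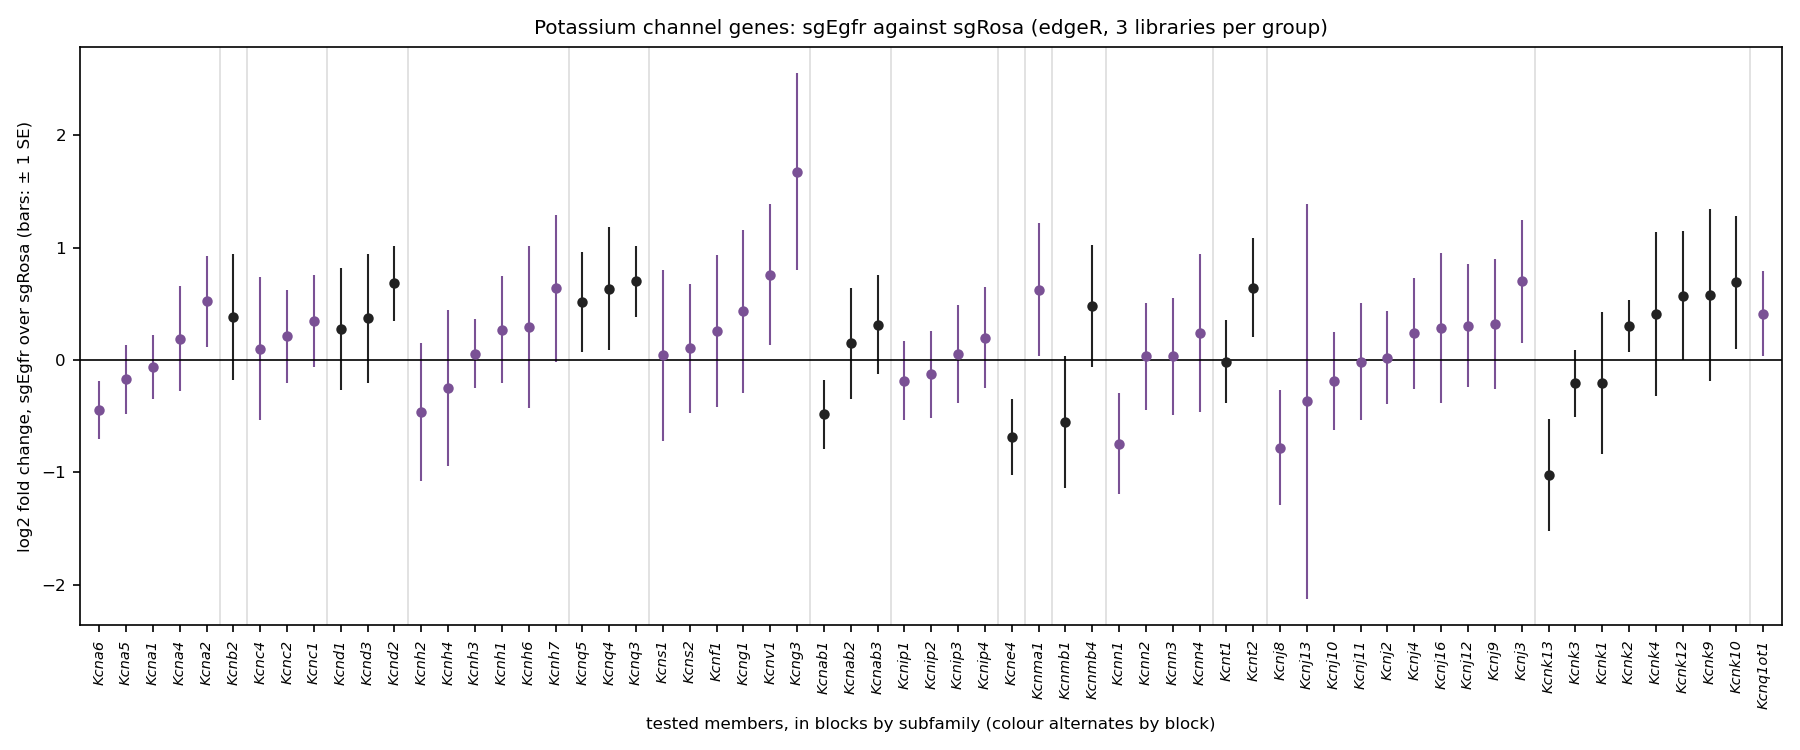
Log2 fold change (sgEgfr against sgRosa) on the vertical axis for 63 of the 66 tested members along the horizontal axis, in blocks by subfamily, with bars of 1 standard error. The points run from -1.03 for Kcnk13 to 1.68 for Kcng3, 44 of them lie above 0, and none passed the test.

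The family's level varied more within the sgRosa group than between the means of the groups. The mean log2 CPM of the 66 members was 3.21, 3.37 and 4.32 in sgRosa 1, 2 and 3, and 4.05, 3.67 and 4.13 in sgEgfr 1, 2 and 3 (3.64 ± 0.60 against 3.95 ± 0.25, SD, n = 3 each). The highest library was a control, sgRosa 3, and the lowest 2 were controls as well. Of the 66 members 29 had their highest CPM in sgRosa 3 and 17 in sgEgfr 3, while 31 had their lowest in sgRosa 1 and 16 in sgRosa 2. Over all tested genes 24.2% were highest in sgRosa 3 and 26.8% lowest in sgRosa 1, beside 43.9% and 47.0% of the members.

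Pan-neuronal and excitatory neuron markers moved with the family, whereas inhibitory and striatal-type neuron markers did not. The mean log2 CPM of the 12 pan-neuronal markers in sgRosa 1, 2 and 3 was 6.45, 6.49 and 7.67, and in sgEgfr 1, 2 and 3 it was 7.50, 7.03 and 7.80, so sgRosa 1 and 2 were lowest and sgRosa 3, sgEgfr 1 and sgEgfr 3 highest, as for the channels. All 12 had a positive log2 fold change, with a median of 0.47, and all 8 excitatory neuron markers did, with a median of 0.84. All 7 tested inhibitory and all 7 tested striatal-type markers had negative ones (medians -1.05 and -0.73), as did all 10 oligodendrocyte markers (median -0.86). With the pan-neuronal mean as a covariate in the edgeR fit, 24 of 66 members had a positive log2 fold change and 0 were called. The family's median was then -0.14, beside -0.051 over all genes. At an unadjusted p under 0.05 this edgeR fit counted 3 of 66 members, beside 1485 of 13159 genes. The family mean minus the pan-neuronal mean, a measure chosen after the values were seen and not tested, was -3.24, -3.11 and -3.35 in sgRosa and -3.46, -3.36 and -3.67 in sgEgfr.

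**Figure D2:**
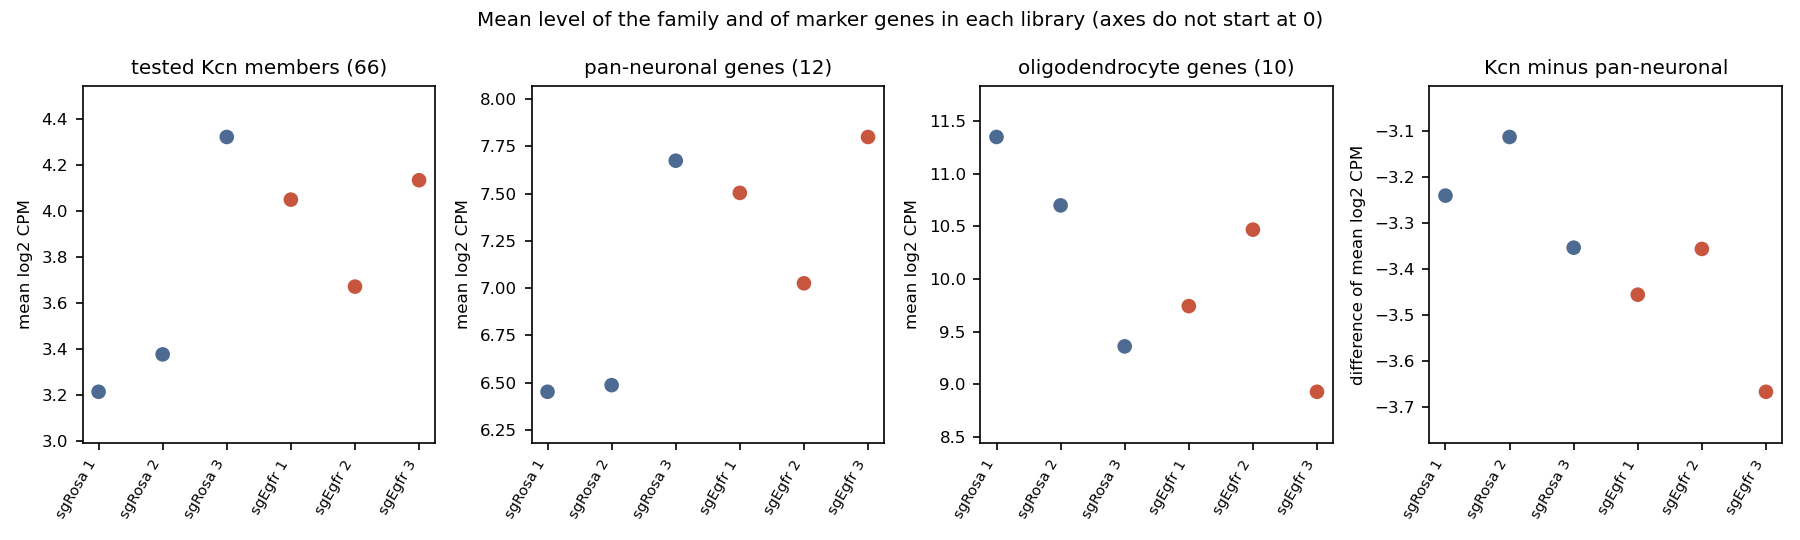
Mean log2 CPM per library for the 66 tested channel genes, the pan-neuronal markers and the oligodendrocyte markers, and the family mean minus the pan-neuronal mean; points are libraries (blue, sgRosa; red, sgEgfr) and the axes do not start at 0. The channel and pan-neuronal panels share their lowest libraries (sgRosa 1 and 2), but the highest is sgRosa 3 for the channels and sgEgfr 3 for the pan-neuronal markers. Oligodendrocyte markers run from 11.35 in sgRosa 1 to 8.93 in sgEgfr 3.

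The median moved with single libraries of both groups. It was 0.84 without sgRosa 3, where 30 of 68 members had an unadjusted p under 0.05 beside 20.4% of 13447 genes. It was -0.04 without sgRosa 1 and 0.076 without sgRosa 2, and it was 0.44 without sgEgfr 2 and 0.088 without sgEgfr 3. Without both libraries with choroid plexus RNA it was 0.71, with 19 of 59 members under that p beside 11.9% of 12722 genes. No member was called by edgeR in any of these fits, the smallest adjusted p of a member being 0.117, without sgRosa 3. The number of all genes called in them is not given here, so the absence of calls is not read as a trait of the family. Medians of the subfamilies moved as well. With the pan-neuronal covariate they were 0.17 for Kcnq and 0.066 for Kcnd, but -0.17 for Kcnc, -0.26 for Kcnh, -0.41 for the silent subunits (Kcnf, Kcng, Kcns and Kcnv), -0.12 for Kcnj and -0.022 for Kcnk, all of which are above 0 without it. Without sgRosa 1 the median of the silent subunits was -0.079, and without sgRosa 3 it was 1.63. For 16 of 32 named genes the log2 fold change kept its sign but moved by over 1.5 times when 1 library was left out, and for 13 it changed sign.

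The Kcnq subfamily, the channels of the slow M current that muscarinic receptors suppress, had a positive log2 fold change in all 4 tested members (median 0.57). Kcnq3, a subunit of that current in neurons (mm10 chromosome 15, 65986387 to 66286642, minus strand), was at 46.1, 45.9 and 89.8 CPM in sgRosa and at 112, 84.6 and 101 CPM in sgEgfr. The groups overlapped because sgRosa 3 lay above sgEgfr 2. The means were 60.6 ± 25.3 and 98.9 ± 13.6 CPM (SD, n = 3), a log2 fold change of 0.70 (SE 0.31, edgeR adjusted p = 0.781). Its estimate stayed positive under every setting tried, from 0.38 with the pan-neuronal covariate to 1.1 without sgRosa 3.

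Among the A-type channels, Kcnd2 (Kv4 family, chromosome 6, 21215503 to 21729805, plus strand), which carries the fast transient current of dendrites, was at 39.4, 38.8 and 70.6 CPM in sgRosa and 67.6, 63.1 and 109 CPM in sgEgfr. Again sgRosa 3 lay above 2 of the sgEgfr libraries, while sgRosa 1 and 2 lay below all of them. The means were 49.6 ± 18.2 and 80.0 ± 25.3 CPM (log2 fold change 0.68, SE 0.33, edgeR adjusted p = 0.781). All 3 Kcnd genes had positive values (median 0.37). Of the 4 genes of their interacting proteins, Kcnip, 2 were positive and 2 negative, with Kcnip2 at -0.13 (SE 0.39) and Kcnip1 at -0.18 (SE 0.35). The Kcnip median of -0.04 moved both ways over the settings. It was 0.59 without sgRosa 3 and 0.33 by limma-voom, but -0.37 with the pan-neuronal covariate and -0.20 without sgRosa 1.

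The electrically silent subunits (Kcnf, Kcng, Kcns and Kcnv), which form channels only together with the Kcnb subfamily of delayed rectifiers, were positive in 6 of 6 tested members (median 0.35). Kcng3 had the largest positive value of the family but few reads, at 0, 1.25 and 2.79 CPM in sgRosa and 7.68, 1.79 and 5.85 CPM in sgEgfr. Its log2 fold change was 1.68 (SE 0.87, edgeR adjusted p = 0.783), and sgEgfr 2 lay below sgRosa 3. Kcnf1, the one of these with the most reads, was at 20.8, 20.05 and 110 CPM in sgRosa and 62.9, 34.8 and 85.7 CPM in sgEgfr, with its highest level in a control.

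**Figure D3:**
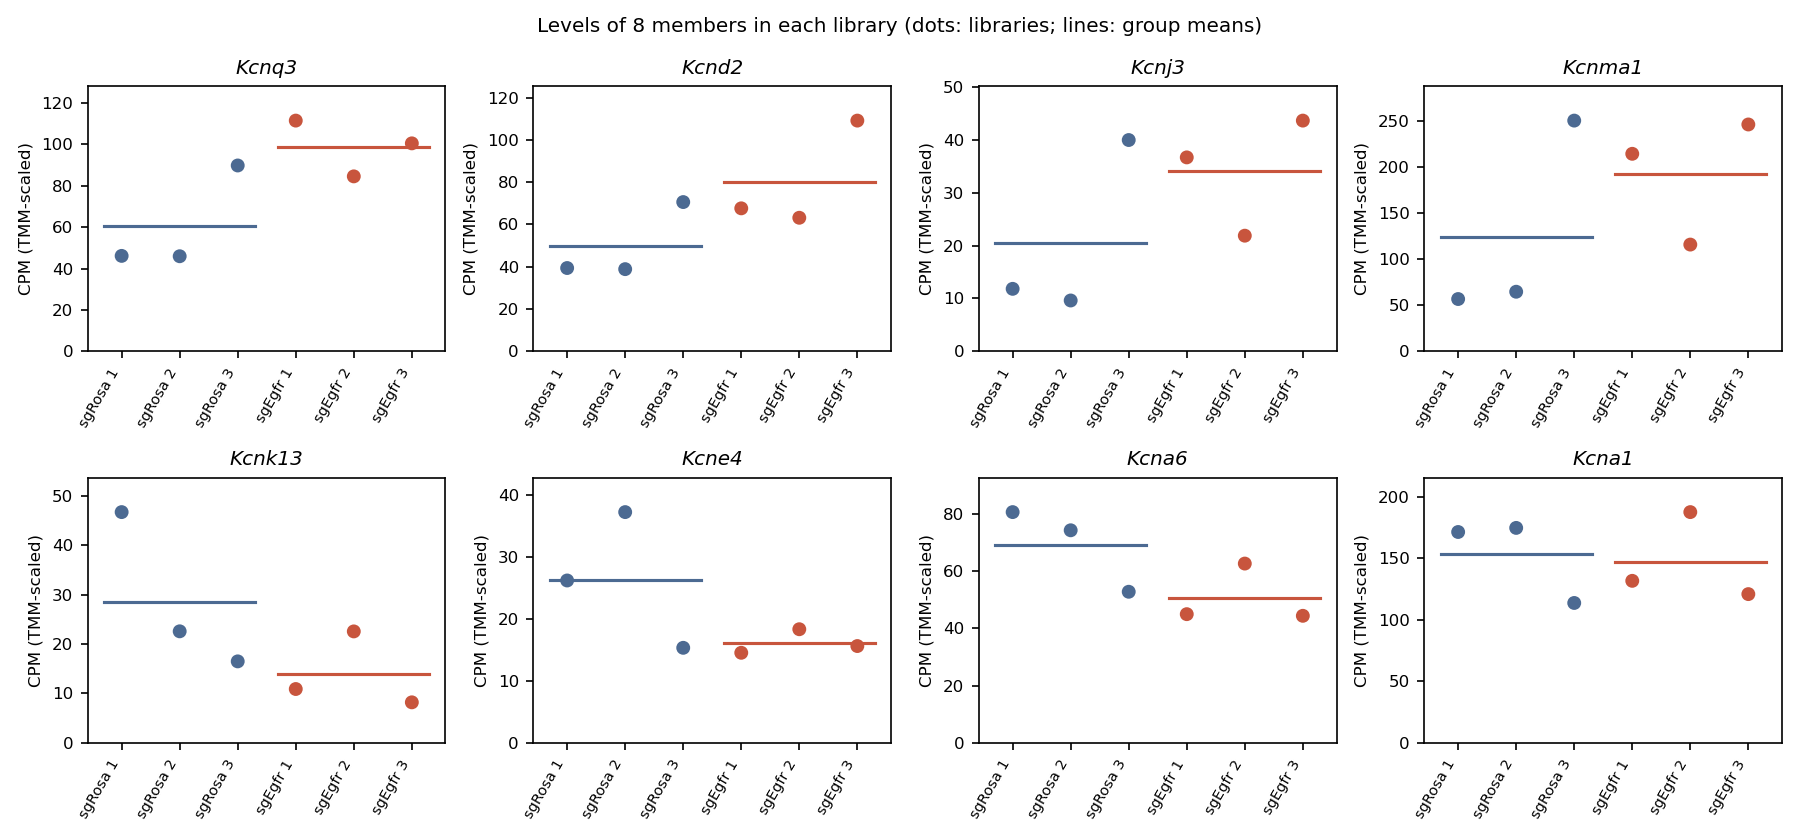
CPM of Kcnq3, Kcnd2, Kcnj3, Kcnma1, Kcnk13, Kcne4, Kcna6 and Kcna1 in each of the 6 libraries, with group means as lines. In the first 4 genes sgRosa 3 lies among or above the sgEgfr libraries, and in no gene are the groups separated.

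The Kcna genes, whose channels sit along axons and near nodes of Ranvier, were the voltage-gated subfamily without an upward lean: 2 of 5 tested members were positive and the median was -0.06. Kcna1 (chromosome 6, 126640397 to 126646384, minus strand) had the highest level per length of the voltage-gated alpha subunits, 31.4 RPKM, a read count scaled for depth and exon length. It was at 171, 175 and 114 CPM in sgRosa and 132, 187 and 121 CPM in sgEgfr, and these overlapped throughout (log2 fold change -0.06, SE 0.28). Kcna6 was at 80.7, 74.3 and 52.8 CPM in sgRosa and 45.0, 62.7 and 44.4 CPM in sgEgfr, with only sgEgfr 2 above the lowest control (log2 fold change -0.45, SE 0.26, edgeR adjusted p = 0.789). Both were lower in sgRosa 3 than in sgRosa 1 and 2, unlike the pan-neuronal list. Exons of Kcna6 overlap the opposite-strand gene Gm26673 over 2355 bases, and since the strand setting of the counting is not given in the sources used here, reads of such partners cannot be told apart; 22 tested members have an overlap of this kind.

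The cytoplasmic beta subunits that bind Kcna channels differed in sign. Kcnab2 had the highest level per length of the family, 56.1 RPKM, and was at 146, 212 and 532 CPM in sgRosa and 407, 228 and 353 CPM in sgEgfr (log2 fold change 0.15, SE 0.49). Kcnab1 was at 52.0, 31.7 and 44.7 CPM in sgRosa and 35.4, 20.1 and 36.6 CPM in sgEgfr (log2 fold change -0.49, SE 0.31, edgeR adjusted p = 0.798). For Kcnab2 the highest library was the control sgRosa 3, and for Kcnab1 it was sgRosa 1. Among the single-pass accessory subunits only Kcne4, known to reduce the current of its partners, was tested. It was at 26.2, 37.2 and 15.3 CPM in sgRosa and 14.5, 18.3 and 15.6 CPM in sgEgfr (log2 fold change -0.69, SE 0.34, edgeR adjusted p = 0.781), so the difference came from sgRosa 1 and 2, with sgRosa 3 level with the sgEgfr libraries.

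The fast delayed rectifiers of the Kcnc subfamily, which allow high firing rates, were positive in 4 of 4 members (median 0.28). Kcnc1 was at 20.2, 25.5 and 54.5 CPM in sgRosa and 43.7, 29.7 and 55.3 CPM in sgEgfr (log2 fold change 0.35, SE 0.41), and sgRosa 3 lay among the highest libraries. Of the 6 tested Kcnh genes, the ether-a-go-go relatives, 4 were positive (median 0.16). Kcnh3 was nearly level at 30.9, 34.3 and 53.8 CPM in sgRosa and 48.4, 29.0 and 46.8 CPM in sgEgfr (log2 fold change 0.05, SE 0.31). Kcnh7 had a log2 fold change of 0.64 (SE 0.65).

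Kcnma1 encodes the pore of the BK channel, which opens on voltage and calcium and ends the action potential (chromosome 14, 23289431 to 24014491, minus strand). It was at 56.8, 64.7 and 251 CPM in sgRosa and 215, 116 and 247 CPM in sgEgfr. Library sgRosa 3 was the highest of all 6 and sgRosa 1 and 2 the lowest. The means were 124 ± 110 and 192 ± 68.1 CPM (log2 fold change 0.63, SE 0.59, edgeR adjusted p = 0.850); the estimate was 1.66 without sgRosa 3 and -0.03 with the pan-neuronal covariate. The auxiliary subunits differed in sign, with the neuronal Kcnmb4 at 0.48 (SE 0.54) and the smooth muscle Kcnmb1 at -0.55 (SE 0.59).

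Transcripts of the small-conductance channels of the Kcnn subfamily, which open on calcium and dampen firing after action potentials, and of Kcnn4, the intermediate-conductance channel counted with them, were low in all libraries. Of 4 tested members 3 were positive with a median of 0.03. Kcnn3 had a log2 fold change of 0.03 (SE 0.52) and Kcnn1 of -0.74 (SE 0.45, edgeR adjusted p = 0.798), the latter from 3.94, 4.18 and 7.11 CPM in sgRosa and 4.27, 2.90 and 1.95 CPM in sgEgfr. The sodium-activated Kcnt1 was level (-0.02, SE 0.37), and Kcnt2 had 0.64 (SE 0.44).

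Inward rectifiers are spread over cell types, and their values split into 6 positive and 4 negative of 10 tested (median 0.13). Kcnj3, a subunit of the G-protein-gated channel that inhibitory receptors open in neurons, was at 11.8, 9.61 and 40.0 CPM in sgRosa and 36.7, 21.9 and 43.6 CPM in sgEgfr (log2 fold change 0.70, SE 0.55, edgeR adjusted p = 0.822). Its lowest libraries were sgRosa 1 and 2, as for the pan-neuronal list. Its partner Kcnj6 had 2, 1 and 45 reads in sgRosa and 7, 7 and 13 in sgEgfr and was not tested. Kcnj4, an inward rectifier of forebrain neurons, was at 13.5, 16.3 and 48.5 CPM in sgRosa and 26.9, 24.5 and 42.5 CPM in sgEgfr (log2 fold change 0.24, SE 0.50).

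Kcnj10, the main inward rectifier of astrocytes and oligodendrocytes, was at 68.9, 90.6 and 38.7 CPM in sgRosa and 58.9, 84.3 and 29.6 CPM in sgEgfr (log2 fold change -0.19, SE 0.43). It was highest in replicate 2 of each group and lowest in replicate 3 of each. The summed level of 10 astrocyte markers had the same highest and lowest libraries within each group, at 911, 1491 and 833 CPM in sgRosa and 1135, 1649 and 482 CPM in sgEgfr; its part in the Kcnj10 values was not tested. Kcnj16, its glial partner, had a log2 fold change of 0.29 (SE 0.67). Kcnj8, known from pericytes and smooth muscle, was at 9.0, 3.34 and 6.12 CPM in sgRosa and 4.05, 4.91 and 1.56 CPM in sgEgfr (log2 fold change -0.78, SE 0.51, edgeR adjusted p = 0.799). The summed level of 10 mural markers lay between 297 and 1357 CPM. This sum was highest in sgRosa 1, as Kcnj8 was, but lowest in sgRosa 3, whereas Kcnj8 was lowest in sgEgfr 3. Its part in the Kcnj8 values was not tested.

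Kcnj13 and Kcne2 are the channel genes of the choroid plexus, and both were high in the libraries in which its markers were high. Kcnj13 (chromosome 1, 87386363 to 87394729, minus strand) was at 1.41, 5.01 and 152 CPM in sgRosa and 119, 3.35 and 1.56 CPM in sgEgfr. Kcne2 (chromosome 16, 92292389 to 92298129, plus strand) had 1, 0 and 185 reads in sgRosa and 90, 0 and 0 in sgEgfr. Only sgRosa 3 and sgEgfr 1, 1 library of each group, held more than a few reads of Kcne2. In the libraries without a read, 3 reads as the limit that a count of 0 allows correspond to 0.669 to 1.25 CPM, while the 185 and 90 reads were 16.7 and 19.2 CPM. Such limits cover counting error only.

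The marker Folr1 was at 0, 5.43 and 55.2 CPM in sgRosa and 36.7, 1.79 and 1.17 CPM in sgEgfr. The choroid plexus list as a whole had 3 of 8 tested members positive. Its summed level ran from 1725 to 11521 CPM in sgRosa and from 513 to 8561 CPM in sgEgfr. Enpp2, a gene of this list, was at 2428, 1682 and 7955 CPM in sgRosa and 6142, 1358 and 502 CPM in sgEgfr. Enpp2 made up most of the sum in every library, so the sums outside sgRosa 3 and sgEgfr 1 say little about the other markers. Defining markers Ttr and Folr1 were at 0 in sgEgfr 3 and in sgRosa 1, respectively. The log2 fold change of Kcnj13 was -0.37 with an SE of 1.75, the widest of the family. It was 3.76 without sgRosa 3, -4.39 without sgEgfr 1 and -0.24 without both. The high second place of Kcnj13 per length, 37.0 RPKM, also came from these libraries, and its exons overlap those of Gigyf2 on the other strand over 623 bases.

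**Figure D4:**
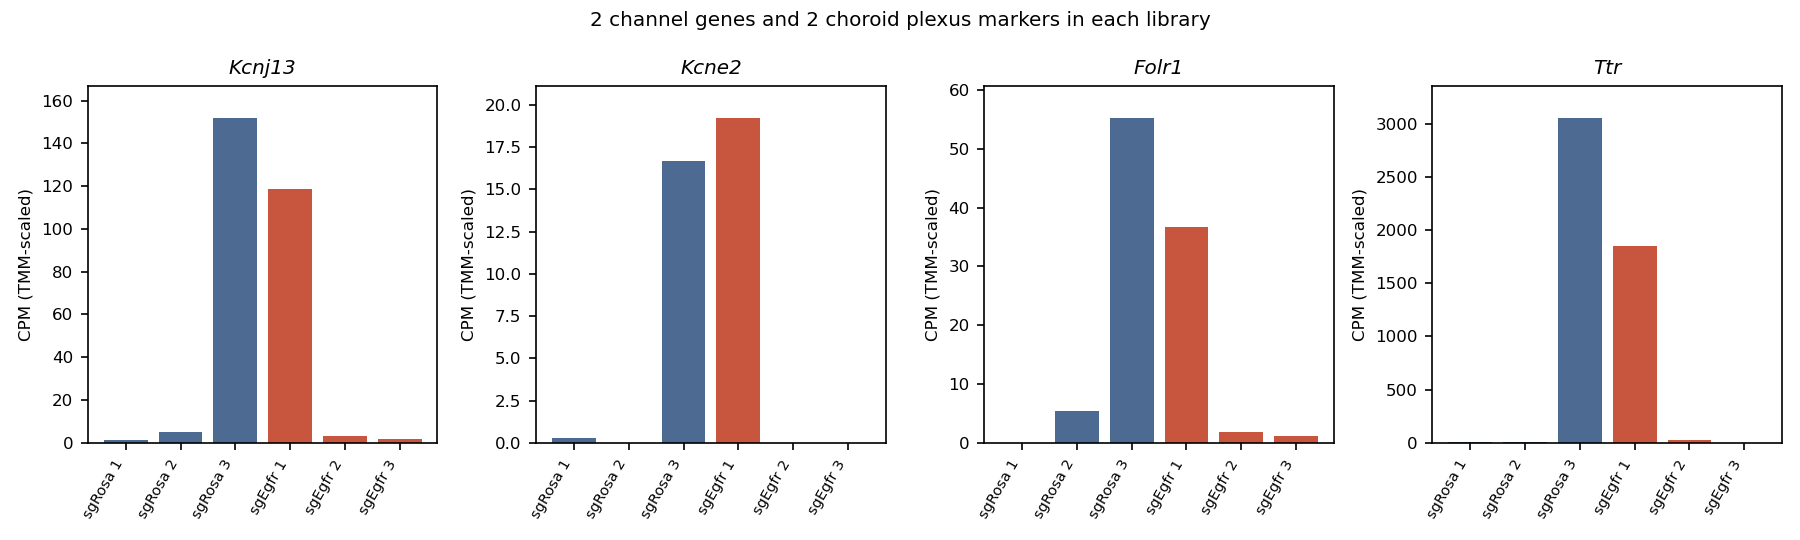
CPM of Kcnj13 and Kcne2 and of the choroid plexus markers Folr1 and Ttr in each library, as bars from 0. All 4 genes are high in sgRosa 3 and sgEgfr 1 only, with Kcnj13 at 152 and 119 CPM there and at most 5.01 CPM elsewhere.

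The tandem-pore leak channels gave 5 positive and 3 negative values among 8 tested members (median 0.36). Kcnk13, the leak channel known from microglia (chromosome 12, 99964499 to 100062682, plus strand), had the most negative value of the family. It was at 46.7, 22.6 and 16.5 CPM in sgRosa and 10.9, 22.5 and 8.18 CPM in sgEgfr, with sgRosa 1 far above the rest and sgEgfr 2 level with sgRosa 2. The means were 28.6 ± 16.0 and 13.9 ± 7.63 CPM (log2 fold change -1.03, SE 0.50, edgeR adjusted p = 0.781), and the estimate without sgRosa 1 was -0.45. Microglial markers leaned the other way between the groups: all 9 tested had a positive log2 fold change (median 1.37, none called). The list of 10 summed to 72.8, 134 and 183 CPM in sgRosa and 357, 531 and 38.2 CPM in sgEgfr. Within sgRosa the order of these sums was the reverse of that of Kcnk13, and within sgEgfr it was the same. The oligodendrocyte list was highest in sgRosa 1, as Kcnk13 was, at 72656 CPM, and lowest in sgEgfr 3, where Kcnk13 was lowest; its part was not tested. Kcnk1, a weak inward rectifier of neurons and glia, was at 13.5, 30.1 and 87.9 CPM in sgRosa and 49.7, 21.6 and 44.0 CPM in sgEgfr (log2 fold change -0.20, SE 0.63), again highest in sgRosa 3.

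The order of levels per length, over the 6 libraries, began with Kcnab2, Kcnj13, Kcna1, Kcnk1 and Kcnj4, followed by Kcnd2, Kcnf1, Kcnj10, Kcna6 and Kcnma1 (9.33 RPKM). Of the 66 tested members 51 reached 1 RPKM. The 31 members not tested included 6 without a read in any library (Kcna10, Kcne1, Kcnj1, Kcnk15, Kcnk16 and Kcnk18), 8 with 1 to 10 reads over all libraries and 17 with more. Apart from Kcne2, none of these exceeded 45 reads in a library. All 31 failed the read filter of the main fit, so differences in them were not tested there. The noncoding transcript Kcnq1ot1, which matches the symbol rule but encodes no channel, was at 101, 84.8 and 71.6 CPM in sgRosa and 59.5, 111 and 172 CPM in sgEgfr (log2 fold change 0.41, SE 0.38).

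Genes that work with these channels leaned the same way. A list was made of 30 partners and other genes of potassium handling and excitability outside the symbol rule. It held, for example, auxiliary subunits, anchoring proteins, calmodulins, pacemaker channels and the sodium-potassium pump. Of 26 tested, 21 were positive and 5 negative (median 0.31), and 0 were called. Over all genes 46.3% were positive (median -0.04) and 0% were called. The mean log2 CPM of these 26 was 5.98, 6.29 and 6.98 in sgRosa 1, 2 and 3. In sgEgfr 1, 2 and 3 it was 6.98, 6.54 and 7.02, so sgRosa 1 and 2 were lowest, as for the channels. Adam22, the synaptic receptor for Lgi1 that is found in Kcna channel complexes, was at 147, 262 and 103 CPM in sgRosa and 467, 361 and 757 CPM in sgEgfr. All 3 sgEgfr libraries lay above all 3 controls (log2 fold change 1.63, SE 0.44, edgeR adjusted p = 0.781, the range over settings being 0.0597 by DESeq2 to 0.999 without sgEgfr 1). Adam22 was the only gene of this list with an unadjusted p under 0.05, 1 of 26 beside 6.16% of all genes, and it was lowest in sgRosa 3, as 3 of the 66 channel genes were. Gnb1, a G-protein beta subunit that opens Kcnj3 channels, was also separated, at 2081, 3647 and 5603 CPM in sgRosa and 7657, 6129 and 7531 CPM in sgEgfr (log2 fold change 0.91, SE 0.45, edgeR adjusted p = 0.781). These 2 of 26 genes, beside 5.8% of all genes separated in that direction, were singled out after their values were seen. Both shares are near those over all genes.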

How the data were processed

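Bulk RNA-seq libraries of amygdala neurons, 3 with sgRosa and 3 with sgEgfr, were grouped by their titles. The authors deposited raw read counts per gene, 1 table per library, without normalization. A table of the whole series was not used. Per the submitters' processing notes the build was mm10 and the tools were STAR 2.7.5c, featureCounts 2.0.1, fastp 0.23.2, MultiQC 1.11, FastQC 0.11.9 and edgeR 3.42.4; gene annotation and strand setting are not given in the sources used here. Libraries, per the labels' protocols, were made from 5 ng of RNA, without a mention of molecular identifiers, so low counts carry amplification error as well.

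Genes passing filterByExpr (minimum count 10, minimum total 15) were scaled by TMM and compared in 1 fit over the whole table with the quasi-likelihood test of edgeR (version 4.0.16 under R 4.3.3, robust dispersion, common biological coefficient of variation 0.355), Benjamini-Hochberg adjusted. Standard errors were the log2 fold change divided by the root of F. CPM are TMM-scaled, means of log2 CPM use a prior count of 2, and RPKM use the union of GENCODE exons. Positions are from GENCODE on GRCm38, the assembly named mm10, promoters from RefSeq. The fit was tested on simulated data with planted changes larger than any main estimate of a member, in genes with more reads than many members. That test therefore cannot tell how well changes of the size seen in the members would be found. All pairs of libraries differed by more than sampling noise (lowest chi-square per degree of freedom 9.53).

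Alternatives were DESeq2 1.42.0, limma-voom (limma 3.58.1), scaling by RLE or by library size, a filter set at a mean of 20 counts with 1 CPM in 3 libraries, no filter, a replicate block, the pan-neuronal mean as covariate, a threshold of 0.1 and the omission of each library. Leaving out both libraries with choroid plexus RNA was chosen after seeing the data. Members, lists and tests were chosen with earlier results of these data known. Named genes were, per subfamily, the tested member with the smallest p and the one with the most reads, plus Kcnq3, Kcnj3, Kcnj6, Kcnj8, Kcnj10, Kcnj13, Kcnj16, Kcne2 and Kcnk13; Kcnj4, Adam22 and Gnb1 were named after their values were seen. Single values of 3 tested members are not reported here.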

Additional observations from a re-analysis of the deposited data

How the results depend on the processing

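No member was called by edgeR under any setting, nor by DESeq2 or limma-voom, which were fitted to all 6 libraries only. None had an adjusted p under 0.1 either, the smallest being 0.117 by edgeR without sgRosa 3. DESeq2 called 33 genes against 0 by edgeR in the main fit, but gave no adjusted p for 31 of the 66 tested members. The number of all genes called is given only for the main edgeR fit, DESeq2 and limma-voom. The family median was 0.71 without both libraries with choroid plexus RNA and ranged from -0.043 to 0.84 when single libraries were left out. With a replicate block it was 0.33 and 0 members were called, 10 of 66 having an unadjusted p under 0.05 against 0 without the block, while over all 13159 genes the block raised that count from 811 to 1316. Same-numbered libraries of the 2 groups had deviations correlated at -0.03, 0.48 and 0.28, and not every library correlated best with its own number, so the numbers are not taken to pair the libraries. Of 478 values of 32 named genes over the settings, 421 kept their sign, none of these genes was called, and 57 changed sign; the cause was not tested. With the pan-neuronal covariate the sign changed for Kcna1 (0.27), Kcnab2 (-0.37), Kcnc1 (-0.17), Kcnf1 (-0.44), Kcnh3 (-0.31), Kcnh7 (-0.062), Kcnj10 (0.40), Kcnj4 (-0.28), Kcnma1 (-0.025), Kcnmb1 (0.26) and Kcnn3 (-0.22). With limma-voom it changed for Kcnip2 (0.18), Kcnj13 (1.33), Kcnk1 (0.52), Kcnn3 (-0.17) and Kcnt1 (0.23). Without both libraries with choroid plexus RNA it changed for Kcnip2 (0.50), Kcnj16 (-0.16), Kcnk1 (0.60) and Kcnt1 (0.48), and with the replicate block for Kcnj16 (-0.033), Kcnk1 (0.080) and Kcnt1 (0.080). Kcnt1 was also above 0 with RLE scaling (0.0069), no filter (0.0080) and the stricter filter (0.027). Over the fits that left out a library, the log2 fold change ran from -0.26 to 0.074 for Kcna1, -0.15 to 0.88 for Kcnab2, -0.079 to 1.57 for Kcnf1, -0.075 to 0.34 for Kcnh3, -0.36 to 0.050 for Kcnip1, -0.32 to 0.43 for Kcnip2, -0.56 to 0.13 for Kcnj10, -4.39 to 3.76 for Kcnj13, -0.13 to 0.75 for Kcnj16, -0.051 to 1.06 for Kcnj4, -0.60 to 0.83 for Kcnk1, -0.14 to 0.60 for Kcnn3 and -0.21 to 0.47 for Kcnt1. Among genes that kept their sign it ran from 0.56 to 1.1 for Kcnq3, 0.43 to 1.03 for Kcnd2, 0.11 to 0.91 for Kcnc1, 0.28 to 1.85 for Kcnh7, 1.19 to 3.19 for Kcng3, 0.31 to 1.66 for Kcnma1, 0.10 to 1.39 for Kcnmb4, 0.44 to 1.65 for Kcnj3, 0.41 to 0.96 for Kcnt2, 0.0075 to 0.72 for Kcnq1ot1, -0.97 to -0.34 for Kcne4, -1.07 to -0.42 for Kcnj8, -1.57 to -0.45 for Kcnk13, -1.07 to -0.071 for Kcnmb1, -0.63 to -0.23 for Kcnab1 and -1.07 to -0.37 for Kcnn1. With 3 libraries a group, totals from 2348897 reads and a median standard error of 0.51, small differences in members were not detectable.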
